A study of Mus musculus with 18 samples.

Results

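The 10 genes described here encode the constant regions of mouse antibodies and the joining chain of polymeric antibodies. They are Ighm, Ighd, Ighg1, Ighg2b, Ighg2c, Ighg3 and Igha for the heavy chains, Igkc and Iglc1 for the light chains, and Jchain. They were chosen by name, and all 10 were found among the 53465 genes counted. Their RNA was measured by sequencing in 18 libraries from wild-type C57BL/6J mice. The tissues were skeletal muscle, white fat and brown fat, each with 3 libraries from mice given vehicle, 10% PEG400 in phosphate-buffered saline, and 3 from mice given quercetin, a plant flavonol, at 0.125 mg/kg in that vehicle. Both were given by gavage in 100 µL, and no transgene or deletion was involved. Age and sex are stated for a lifespan study only, as males that started at 14 months, and the depot of the white fat is not given in the sources used here. Nothing in the labels says that the 3 libraries of a group came from separate animals, so every p-value rests on a spread among libraries that may be technical.

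An antibody is built from paired heavy and light chains, each with a variable region that binds antigen and a constant region that sets its class. A naive B cell makes IgM and IgD from Ighm and Ighd. After class switching, which deletes the DNA between the variable region and a downstream constant gene, it makes IgG from one of the Ighg genes or IgA from Igha. Plasma cells, the secreting end stage of a B cell, carry very large amounts of these RNAs, so a few such cells can give many reads in a tissue. The J chain links IgM and IgA units into polymers. In white fat, visceral and subcutaneous depots hold B cells, and lymph nodes lie within several depots.

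The 7 heavy-chain genes lie side by side on the minus strand of chromosome 12 of the GRCm38 build, from Igha at 113254830 to the start of Ighm at 113422730. Igkc is on chromosome 6 (70726435 to 70726966), Iglc1 on chromosome 16 (19061618 to 19062071) and Jchain on chromosome 5 (88519809 to 88527891). Reads counted on these genes cover exons of their messages, untranslated ends and membrane exons included where annotated. The 4 IgG genes are close relatives, so the exon in which they differ most visibly is shown, the hinge, which is the flexible joint between the antigen-binding arms and the stem. Each is the second exon of its transcript, read on the minus strand in the GENCODE annotation of GRCm38, and the capitals mark the in-frame cysteine codons.
Ighg1 hinge: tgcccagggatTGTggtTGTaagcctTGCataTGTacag
Ighg2b hinge: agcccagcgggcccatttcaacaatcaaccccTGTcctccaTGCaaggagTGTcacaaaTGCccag
Ighg2c hinge: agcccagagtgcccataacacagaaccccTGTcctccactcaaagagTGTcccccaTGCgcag
Ighg3 hinge: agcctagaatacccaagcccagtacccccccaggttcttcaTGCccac
The hinge of Ighg1 held 4 cysteine codons in 39 bases and that of Ighg2b 4 in 66, while Ighg2c had 3 in 63 and Ighg3 1 in 48. Of all 50-base windows in the transcripts, 5.49% of those of Ighg2c, 4.15% of Ighg2b, 1.58% of Ighg3 and 0.393% of Ighg1 also occurred in another of the genes described. Iglc2 and Iglc3, further lambda genes, shared 7.65 and 10.7% of theirs. No window of 100 bases was shared. Reads from the shared stretches could not be told apart by the count step, and the read length is not given in the sources used here. Iglc1 overlaps an antisense gene and Igkc a long noncoding gene in the annotation, and since the strand setting of the count is not given, reads of Iglc1 and of its antisense partner cannot be told apart.

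Libraries held 8436308 to 12311345 counted reads. Marker genes of the tissues were checked as summed CPM, that is reads per 1000000 after scaling of the 18 libraries to each other. The 6 muscle markers summed to 62903 to 113937 in muscle and to 14.0 to 924 in white fat, and the 6 brown fat markers to 2236 to 10159 in brown fat and to 908 or less elsewhere. A library stood apart in each tissue. Muscle quercetin library 2 held 28578 CPM of 6 seminal vesicle genes, which summed to 0.584 or less in every other library. White fat vehicle library 2 held 647 CPM of the 6 adipocyte markers, against 6957 to 40770 in the other white fat libraries. Brown fat quercetin library 3 held 27347 CPM of muscle markers and the lowest sum of brown fat markers in its tissue.

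The 10 genes were highest in white fat, where they split into a high and a low set of libraries. Together they took 35169 and 27205 of every 1000000 reads in white fat vehicle libraries 2 and 3, but 114 in vehicle library 1. In quercetin-treated white fat they took 8233 and 7288 in libraries 1 and 3, but 433 in library 2. The range was 48.0 to 1043 in muscle and 43.2 to 284 in brown fat, so that both low white fat libraries lay within or near the range of the other tissues. These low libraries carry the sequencing code H7GKJDSXX in the labels and the other 4 carry H7H2WDSXX. The only other library with the first code was muscle quercetin library 3, which had the highest sum in muscle. In white fat the code and the split cannot be told apart, and since both sets hold both treatments, neither follows the treatment.

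The B cell marker Cd79a, a signalling chain of the B cell receptor, split the white fat libraries in the same way. It was at 882, 410, 1137 and 168 CPM in the libraries with many immunoglobulin reads, in the order of vehicle libraries 2 and 3 and quercetin libraries 1 and 3, and at 0.763 and 1.24 in the other 2. Ms4a1, which encodes CD20 on mature B cells, was at 361, 143, 288 and 71.6 CPM against 0 and 0.438. Cd3e, a T cell receptor subunit, was at 34.3, 27.9, 38.6 and 43.2 CPM against 0.327 and 0.511. Ccl21a, a chemokine of lymph node stroma, was detected at 4.26, 3.20, 10.5 and 0.217 CPM in the same 4 libraries and had no reads in the other 2. The last value rests on 3 reads. Muscle vehicle library 2, which had no read of Ms4a1, also held Ccl21a at 4.81 CPM. Over the whole lists, the 19 B cell markers measured summed to 1175 to 4758 CPM in these 4 libraries and to 146 and 152 in the other 2, the 12 T cell markers to 703 to 1177 against 9.92 and 13.8, and the 9 lymph node markers to 426 to 643 against 136 and 273. The part of these cells in the results for white fat was not tested. In such bulk samples, fewer cells of a type and less RNA per cell cannot be told apart.

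**Figure D1:**
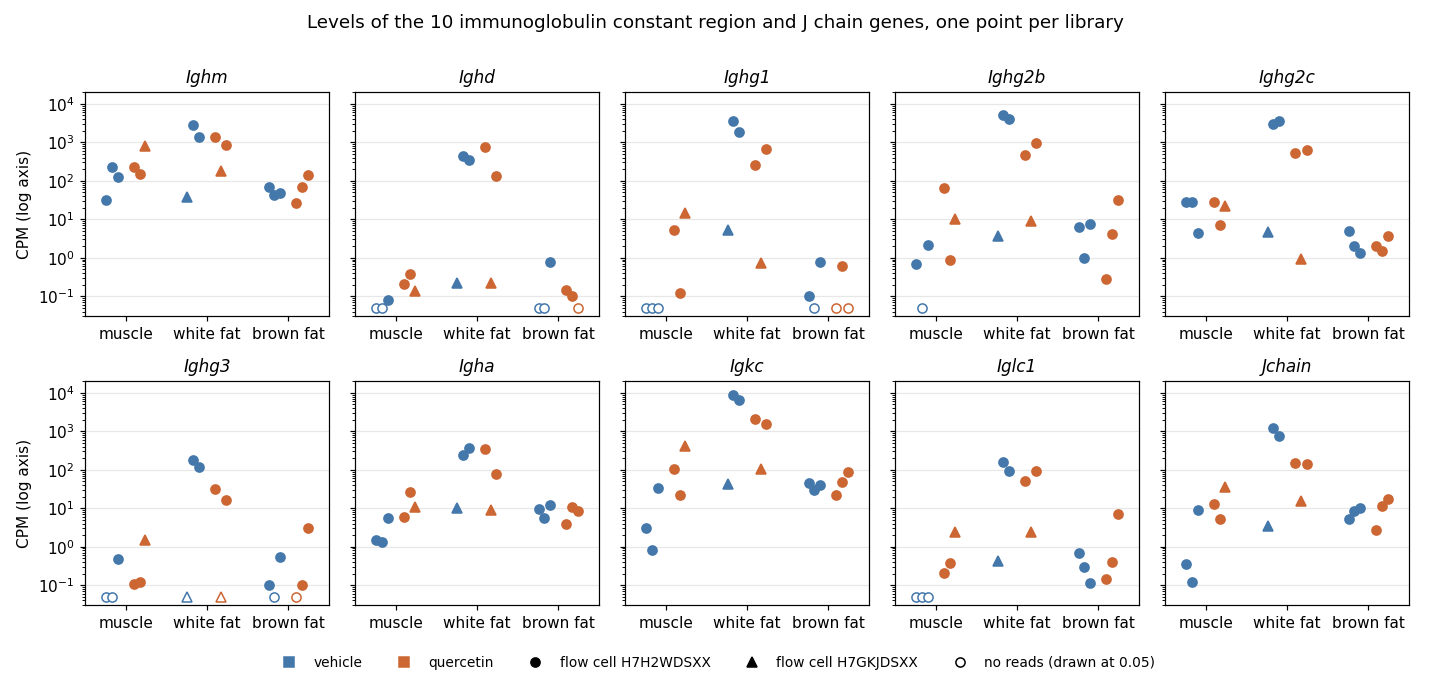
Level of each of the 10 genes in CPM on a log axis, with one point per library, by tissue and treatment; the shape gives the sequencing code of the library and open points mark libraries without a read. In white fat the 2 triangles lie below the 4 circles for every gene, and both treatments have high and low points.

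Ighm, the constant region of IgM, had at least 192 reads in every library, which no other of the 10 genes had. It was at 31.3, 228 and 128 CPM in the 3 vehicle muscle libraries and at 235, 148 and 796 with quercetin. In white fat it was at 37.7, 2860 and 1415 CPM with vehicle and at 1364, 181 and 830 with quercetin. In brown fat it was at 69.9, 41.9 and 47.6 CPM with vehicle and at 27.2, 70.6 and 142 with quercetin. The 4 high white fat libraries lay above every muscle library, and 5 of the 6 white fat libraries lay above every brown fat library. Ighd, the constant region of IgD that naive B cells make beside IgM, behaved differently. It reached 447, 339, 744 and 134 CPM in white fat vehicle libraries 2 and 3 and quercetin libraries 1 and 3. It had 0.778 CPM or less, at most 7 reads, in each of the other 14 libraries.

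The IgG genes were also concentrated in white fat. Ighg2b was at 3.71, 5135 and 3933 CPM in the white fat vehicle libraries and at 456, 8.97 and 974 with quercetin. Ighg1 was at 5.23, 3653 and 1877 CPM with vehicle and at 258, 0.730 and 668 with quercetin. Ighg2c, the IgG2 gene that C57BL/6 mice carry in place of Ighg2a, was at 4.58, 2920 and 3565 CPM with vehicle and at 517, 0.949 and 646 with quercetin. In all 3 genes both vehicle libraries with many reads stood above both such quercetin libraries, and the 2 remaining libraries were low in either treatment. Ighg3 followed the same order at a lower level, with 179 and 120 CPM in the high vehicle libraries, 31.5 and 16.1 in the high quercetin libraries and no read in the other 2.

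Outside white fat the IgG genes were uneven. In muscle, Ighg2c was at 27.9, 28.9 and 4.28 CPM with vehicle and 28.4, 7.31 and 21.7 with quercetin, and its groups overlapped. Ighg2b in muscle was at 0.699, 0 and 2.18 CPM with vehicle and 63.7, 0.868 and 10.3 with quercetin. In brown fat, Ighg2b was at 6.31, 1.01 and 7.67 CPM with vehicle and 0.283, 4.15 and 31.4 with quercetin. The highest of these values, in brown fat quercetin library 3, was in the library with many muscle markers. Ighg1 had 14 reads in all 6 brown fat libraries together.

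Igha, the constant region of the IgA made mainly at mucosal surfaces, varied less among the low libraries than the IgG genes. It was at 9.62, 5.63 and 11.9 CPM in vehicle brown fat and at 3.82, 10.9 and 8.25 with quercetin. In muscle it was at 1.51, 1.32 and 5.65 CPM with vehicle and at 5.96, 25.8 and 10.7 with quercetin. These muscle groups did not overlap, with the highest vehicle and the lowest quercetin library close to each other. In white fat it was at 10.0, 237 and 375 CPM with vehicle and at 339, 8.76 and 78.0 with quercetin. The 2 low white fat libraries thus had Igha within the range of brown fat.

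Igkc encodes the constant region of the kappa light chain, which most mouse antibodies carry. It was at 42.2, 8948 and 6615 CPM in vehicle white fat and at 2087, 107 and 1542 with quercetin. In muscle it was at 3.14, 0.842 and 33.0 CPM with vehicle and at 102, 21.9 and 418 with quercetin, and in brown fat at 46.6, 29.6 and 41.3 with vehicle and at 21.5, 48.9 and 88.9 with quercetin. Muscle had both the lowest and, outside white fat, the highest Igkc value. Iglc1, a lambda light-chain gene, reached 51.8 to 156 CPM in the 4 high white fat libraries and 7.10 CPM or less in the other 14. Jchain was at 3.38, 1213 and 760 CPM in vehicle white fat and at 146, 15.0 and 145 with quercetin. It was at 0.120 to 35.8 CPM in muscle and at 2.69 to 17.6 in brown fat, so these tissues overlapped.

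Compared between tissues over both treatments in one edgeR quasi-likelihood fit of the 18 libraries, Ighm, Ighg2b, Ighg2c, Igha, Igkc and Jchain were higher in white fat than in muscle, at a Benjamini-Hochberg adjusted p below 0.05. These 6 genes also passed the filter on low counts in muscle alone and in brown fat alone. Of all 16388 genes tested, 28.6% were called higher in that comparison. Ighd, Ighg1, Ighg3 and Iglc1 were called higher too, but they passed the filter only through their reads in white fat, so their calls add no support. The ratio of mean CPM was 4.27 for Ighm, where the log2 fold change was 2.24 ± 0.80 (SE; adjusted p = 0.0296). Ighm no longer passed, at an adjusted p of 0.0530 to 0.0879 by edgeR, when muscle vehicle library 1 or 3, muscle quercetin library 1 or 2, white fat vehicle library 2 or white fat quercetin library 1 was left out. The ratio was 20.6 for Igha (4.75 ± 0.90, adjusted p = 0.000598) and 33.4 for Igkc (5.75 ± 1.24, adjusted p = 0.00157). Jchain had a ratio of 35.9 and Ighg2c of 64.6, Ighg2b of 135 and Ighg1 of 323. Ighd, with 7 reads in the 6 muscle libraries together, had a ratio of 2077, which rests on those few reads. None of the 10 genes separated the 6 white fat libraries from the 6 muscle libraries without overlap, while 9.41% of all genes did so in the higher direction. The called differences thus rest on 4 of 6 white fat libraries for 9 of the 10 genes, and on 5 for Iglc1.

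The same 6 genes were called lower in brown fat than in white fat in that fit, where 22% of all genes were called lower, as were the 4 that passed the filter only through white fat. White fat exceeded brown fat by a ratio of mean CPM of 16.7 for Ighm, 20.9 for Igha, 41.0 for Jchain and 69.9 for Igkc. The log2 fold changes of brown fat minus white fat were -4.03 ± 0.87 for Ighm (SE; adjusted p = 0.00227), -4.36 ± 0.88 for Igha (adjusted p = 0.00153), -4.82 ± 1.16 for Jchain (adjusted p = 0.00457) and -5.80 ± 1.25 for Igkc (adjusted p = 0.00230). With vehicle libraries alone, 6 of 7 genes tested were called higher than in muscle, against 9.60% of all genes, and 4 of 7 higher than in brown fat, against 4.36%. With quercetin libraries alone, 2 of 9 tested were called higher than in muscle, against 15.6% of all genes, and 5 of 9 higher than in brown fat, against 8.38%. The genes tested in single arms include some that passed the filter through white fat, whose calls add no support. Among them was Ighg1 with vehicle, with 0 reads in muscle and 8 in brown fat, against 69016 in white fat.

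Between brown fat and muscle, none of the 6 genes that pass the filter in these tissues was called by edgeR in the fit of 18 libraries, against 27.2% of all genes, and 2 had an unadjusted p below 0.05. Ighm was lower in brown fat by a log2 fold change of -1.79 ± 0.79 (adjusted p = 0.108) and Ighg2c by -2.91 ± 1.17 (adjusted p = 0.0792). DESeq2 called both lower, with adjusted p of 0.0381 and 0.00963. A fit of the 12 muscle and brown fat libraries alone tested exactly these 6 genes and also called both (edgeR, adjusted p = 0.0296 and 0.00236), where 34.2% of all genes were called. For Ighg2c, 6 of 6 brown fat libraries lay at 5.01 CPM or less and 5 of 6 muscle libraries above that. The mean levels of Igha (8.36 CPM in brown fat, 8.49 in muscle) and Jchain (9.27 and 10.6) were within their spread, and their order was not resolved.

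To compare isotypes with each other, reads were divided by the exon length of each gene, and each heavy chain was expressed as a share of the summed level of all 7. Ighm made up 73.2 to 84.7% of this sum in the 6 brown fat libraries and 43.1 to 93.2% in muscle. In white fat it made up 12.5 to 37.8% in the 4 high libraries, and 65.1 and 92.5% in the 2 low ones. The 4 IgG genes together took 75.3, 82.2, 35.1 and 67.4% in the high libraries, in the order of vehicle libraries 2 and 3 and quercetin libraries 1 and 3, and 22.3 and 4.20% in the low ones. IgG thus made up most of the heavy-chain level in 3 of the 4 high libraries, while in quercetin library 1 Ighm was slightly above it at 37.8%. Ighg2c was the leading IgG in each of these 4 by this measure, at 20.4 to 44.8%, followed by Ighg2b at 8.90 to 25.8%, Ighg1 at 5.19 to 18.9% and Ighg3 below 1%. The annotation gives Ighg2c an exon length of 1326 bases and the other IgG genes 2512 to 2678, so the order of Ighg2c and Ighg2b depends on the lengths used. White fat quercetin library 1 differed from the other 3 by its Ighd share of 20.5%, against 2.97 to 4.25%.

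**Figure D2:**
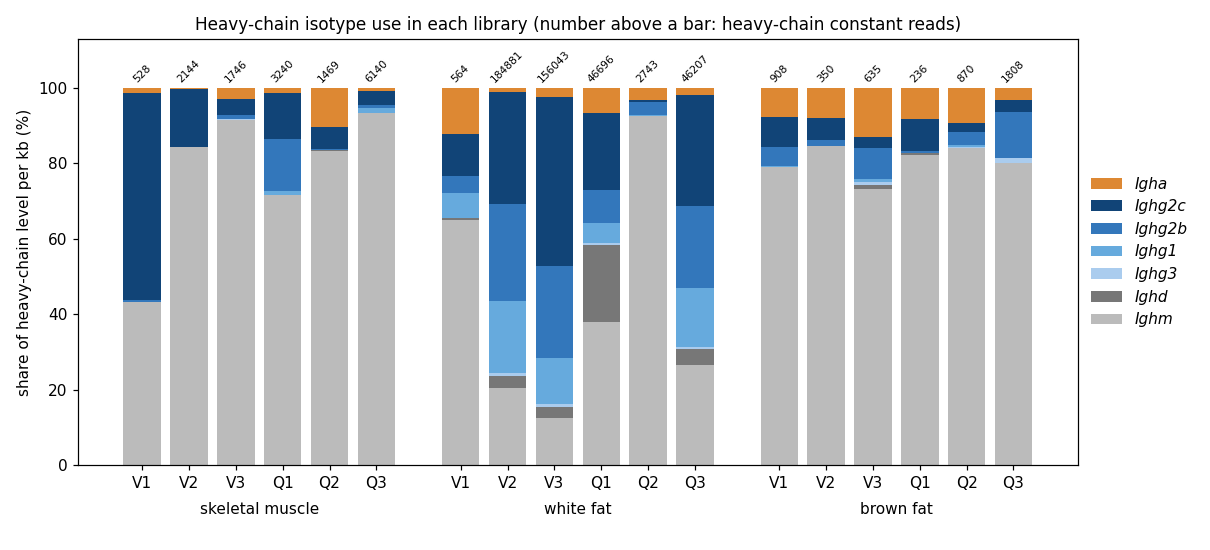
Share of each heavy-chain isotype in the summed heavy-chain level per kb of exon, in percent, for each of the 18 libraries (V for vehicle, Q for quercetin), with the number of heavy-chain constant reads above each bar. Ighm fills most of each bar in brown fat, and the IgG genes fill most of the bar in white fat V2, V3 and Q3.

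The Igha share was 8.22% ± 3.09 in brown fat (SD, n = 6), 2.85% ± 3.73 in muscle (n = 6) and 4.56% ± 4.22 in white fat (n = 6). The highest share, 12.9%, was in brown fat vehicle library 3, and in muscle quercetin library 2 alone exceeded 3%, at 10.3%. The difference of brown fat minus muscle was 5.37 percentage points, with a two-sided exact permutation p of 0.0368 and an adjusted p of 0.110 over the 6 share comparisons between tissues. Without muscle quercetin library 2, the library with seminal vesicle genes, it was 6.85 points, with an adjusted exact permutation p of 0.0260. The IgG share was 47.7% ± 31.7 in white fat, 19.3% ± 19.6 in muscle and 10.96% ± 3.93 in brown fat (SD, n = 6 each). Brown fat minus white fat was -36.8 points (exact permutation p = 0.0195, adjusted 0.110). None of the 6 comparisons passed after adjustment.

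Among the switched isotypes alone, Igha was the largest part in brown fat vehicle libraries 2 and 3 and quercetin library 2. It was also the largest in white fat vehicle library 1 and muscle quercetin library 2. Igha made up 36.7, 52.6 and 50.4% of the switched level in vehicle brown fat and 47.2, 58.0 and 16.4% with quercetin. Brown fat vehicle library 2 and quercetin library 1 held only 60 and 43 switched reads. Ighg2c was above Igha in brown fat vehicle library 1 (38.5%) and quercetin library 1 (49.3%). Ighg2b was above it in brown fat quercetin library 3 (62.2%) and white fat quercetin library 2 (43.9%). In the low white fat libraries it made up 35.4 and 43.0%, and in the 4 high ones 1.56 to 15.9%. In muscle it made up 2.59, 2.23 and 33.3% with vehicle and 4.51, 61.9 and 13.2% with quercetin. Ighg2c was 96.2 and 97.8% of the switched level in muscle vehicle libraries 1 and 2, higher than in any other library.

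These same muscle libraries had heavy-chain reads with hardly any light chain, variable gene or J chain. Muscle vehicle library 2 had 1893 reads of Ighm and 240 of Ighg2c, but 7 of Igkc, 1 of Jchain and 1 read on all 185 Ighv genes. Muscle vehicle library 1 had 269 reads of Ighm and 240 of Ighg2c, with 27 of Igkc, 3 of Jchain and 6 on Ighv genes. Ighv genes encode most of the heavy-chain variable region, and a complete heavy-chain message carries one. For every 100 heavy-chain constant reads, vehicle libraries 1 and 2 had 1.14 and 0.0466 Ighv reads. The other 16 libraries had 2.60 to 21.1. The source of the heavy-chain constant reads in these muscle libraries was not tested.

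The ratio of the Ighm to the Igkc level per kb shows the same. It was 2.81 and 76.3 in muscle vehicle libraries 1 and 2 and 1.10 in vehicle library 3, and 0.647, 1.90 and 0.537 in the quercetin muscle libraries. In brown fat it was 0.325 to 0.452, and in white fat 0.0603 to 0.476. All 6 muscle libraries lay above all 12 fat libraries. Muscle vehicle libraries 1 and 2 hold 480 of the 533 Ighg2c reads of vehicle muscle. The Ighg2c share of that group thus rests on libraries with few light-chain reads.

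**Figure D3:**
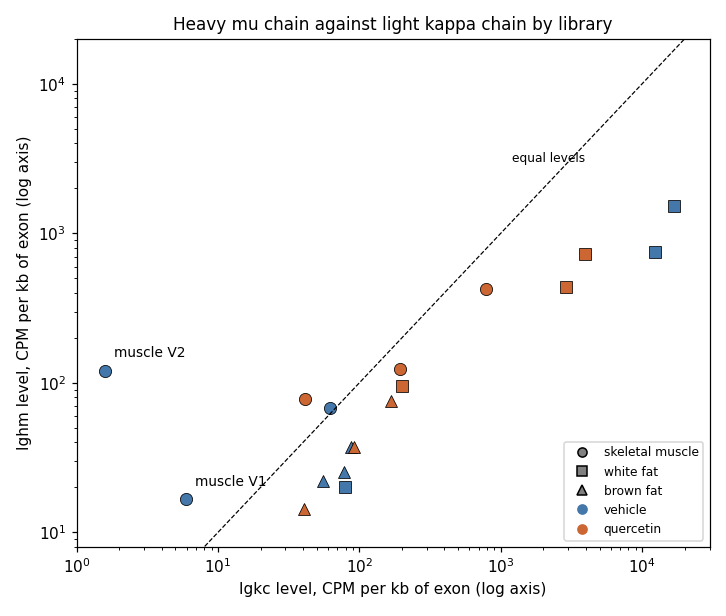
Level of Ighm against that of Igkc, both in CPM per kb of exon on log axes, with one point per library, shaped by tissue and coloured by treatment; the dashed line marks equal levels. The muscle libraries lie nearer to or above the line, with vehicle library 2 at a ratio of 76.3, and the 12 fat libraries lie below it at ratios of 0.476 or less.

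Among light chains, kappa prevailed in every library. The lambda genes Iglc1, Iglc2 and Iglc3 together made up 3.39% or less of the light-chain level per kb in 15 of 18 libraries. They made up 7.41 and 8.13% in white fat quercetin libraries 1 and 3 and 10.3% in brown fat quercetin library 3. In that brown fat library 68 reads fell on Iglc1, against 7 or fewer in the other 5 of its tissue. Iglc2 was at 81.5, 41.7, 81.6 and 27.7 CPM and Iglc3 at 34.0, 15.7, 30.2 and 4.998 CPM in the 4 high white fat libraries, and both at 1.46 CPM or less elsewhere. Ighe, the constant region of IgE in allergy and parasite defence, had 26.8, 1.34, 11.1 and 1.88 CPM there and no read in the other 14 libraries. Jchain per kb was 0.0148 to 0.0608 of the Igkc level in every library, with overlapping tissues.

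The variable genes give a view of how many different antibodies stand behind the constant reads. In the 4 high white fat libraries, reads fell on 100 to 109 of the 185 Ighv genes and on 97 to 111 of the 160 Igkv genes, and no single gene took over 13.2% of its class. The other 14 libraries, with far fewer reads, showed 1 to 44 Ighv and 1 to 50 Igkv genes. These numbers grow with depth and were not compared. A single pair recurred at the top of several small libraries, Ighv11-2 and Igkv14-126, known in mice as a pair used by B-1a cells, the innate-like B cells of body cavities, for antibodies against phosphatidylcholine. The last 120 coding bases of both, which reach past the conserved second cysteine into the third antigen-contact loop, are given as GENCODE annotates them in GRCm38, with the codon of that cysteine in capitals.
Ighv11-2: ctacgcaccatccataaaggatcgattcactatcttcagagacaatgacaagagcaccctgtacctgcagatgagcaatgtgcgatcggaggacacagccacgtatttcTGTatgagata
Igkv14-126: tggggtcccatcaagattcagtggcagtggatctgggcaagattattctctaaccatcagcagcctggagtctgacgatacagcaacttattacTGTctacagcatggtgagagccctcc

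Ighv11-2 lies on the minus strand of chromosome 12 and Igkv14-126 on the plus strand of chromosome 6. In white fat quercetin library 2, Ighv11-2 took 45.8% of 520 Ighv reads (exact 95% binomial interval 41.4 to 50.2, counting error only) and Igkv14-126 39.8% of 751 Igkv reads (36.3 to 43.4). In white fat vehicle library 1 these shares were 35.6% of 45 reads (21.9 to 51.2) and 27.7% of 112 (19.6 to 36.9). Both are the white fat libraries with few immunoglobulin reads. In the 4 others Ighv11-2 took 0.249 to 3.32% and Igkv14-126 0.395 to 2.82%.

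In brown fat the pair was found in every library. Ighv11-2 took 11.5, 20.5 and 11.2% of the Ighv reads with vehicle and 25.0, 36.3 and 10.6% with quercetin. Igkv14-126 took 4.59, 8.33 and 6.32% of the Igkv reads with vehicle and 38.6, 32.8 and 25.9% with quercetin. All 3 quercetin libraries of brown fat were above all 3 vehicle libraries for Igkv14-126, and the groups overlapped for Ighv11-2. This separation was noticed after the values were seen and has no test. In brown fat vehicle library 2, Igkv4-91 led the kappa genes with 31.2% of 96 reads.

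Muscle differed from library to library. In vehicle library 3 the pair led with 19.6% of 163 Ighv reads and 19.3% of 301 Igkv reads. That library had the highest sum of adipocyte markers in muscle. In quercetin library 2, Ighv5-9 took 89.7% of 58 Ighv reads (exact 95% interval 78.8 to 96.1) and Igkv1-117 75.3% of 97 Igkv reads (65.5 to 83.5). This was the library with seminal vesicle genes and the highest Igha share in muscle. In quercetin library 1, Ighv6-6 led with 22.4% of 393 reads and Igkv14-111 with 22.6% of 589. In quercetin library 3, Ighv5-15 led with 22.5% of 644 and Igkv3-10 with 26.7% of 1606. No read of Ighv11-2 or Igkv14-126 was found in quercetin libraries 2 and 3.

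**Figure D4:**
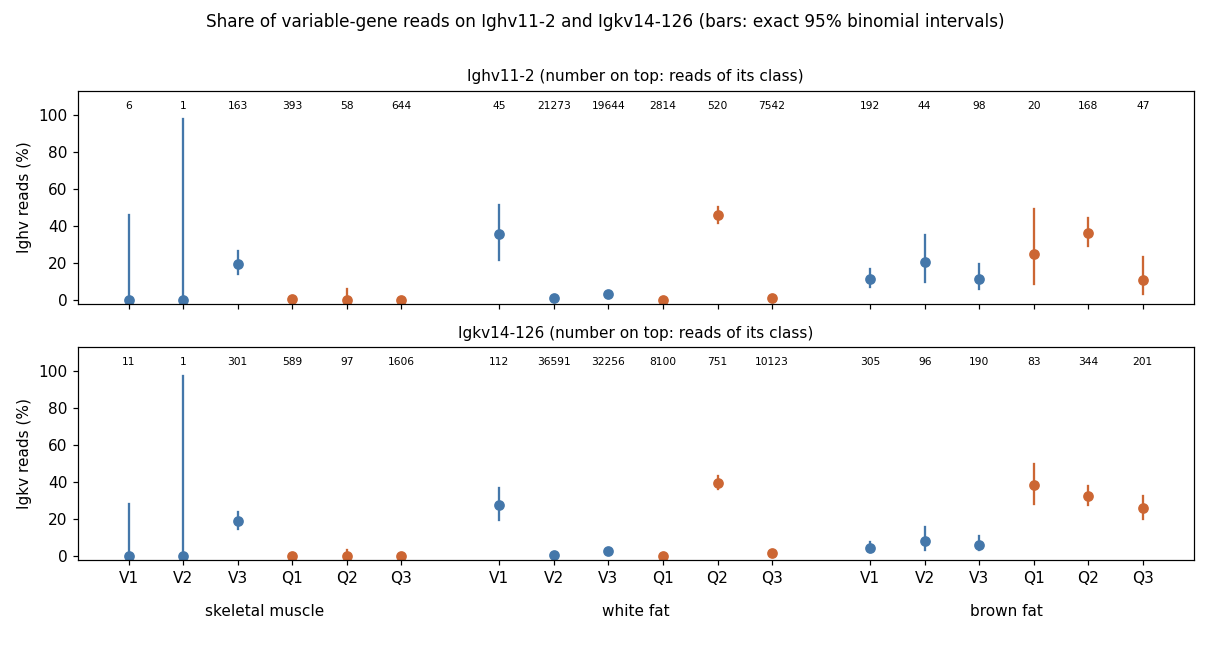
Share of Ighv11-2 in all Ighv reads (top) and of Igkv14-126 in all Igkv reads (bottom) in percent for each library, with exact 95% binomial intervals and the number of reads of the class on top. The shares are highest in white fat V1 and Q2 and in brown fat Q1 and Q2, and below 4% in white fat V2, V3, Q1 and Q3.

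Quercetin was compared with vehicle within each tissue, to ask whether treatment altered antibody RNA. No gene was called in any tissue by edgeR, of the 13562 tested in muscle (0%), 14919 in white fat (0%) and 13274 in brown fat (0%), and so none of the 10 genes passed. At an unadjusted p below 0.05 there were 406, 122 and 241 genes. DESeq2 called 0, 7 and 2 genes, none of the 10 among them. The intervals for the 10 genes were wide, and large differences in either direction lay within them in white fat.

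In muscle, 6 of the 10 genes had enough reads to be tested, since Ighd, Ighg1, Ighg3 and Iglc1 fell below the filter on low counts. Of these, 5 had a positive log2 fold change, as had 47% of all genes, with a median of 2.32 against -0.03 over all genes. Ighg2b was at 4.57 ± 1.53 (SE), Igha at 2.24 ± 0.74 and Igkc at 3.82 ± 1.43, each with an unadjusted p below 0.05 and an adjusted p of 0.910 by edgeR. Igha did not overlap between treatments, as did 5.85% of all genes in the higher direction, while Ighg2b and Igkc overlapped. Ighm was at 1.58 ± 0.81 and Jchain at 2.39 ± 1.29. Ighg2c, at -0.12 ± 0.72, had the one negative estimate. Of the genes below the filter, Ighg1 had 0, 0 and 0 reads with vehicle and 49, 1 and 106 with quercetin. In pooled reads this was 63.0-fold higher when the vehicle group is set to a floor of 3 reads over its 3 libraries. Iglc1 had 0 reads with vehicle and 2, 3 and 17 with quercetin, 8.89-fold higher in pooled reads on the same floor. These folds leave out the spread between libraries, and quercetin library 2 had 1 read of Ighg1. Most of these reads, 106 of 156 and 17 of 22, came from quercetin library 3, which carries the sequencing code H7GKJDSXX. Without it the pooled folds were 29.6 for Ighg1 and 2.96 for Iglc1. They rest on 50 reads of Ighg1, 49 of them in quercetin library 1, and on 5 reads of Iglc1.

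Markers of other cells also differed between the muscle groups. The 12 T cell markers summed to 1.51, 6.01 and 4.92 CPM with vehicle and to 14.1, 8.80 and 14.9 with quercetin, so these groups did not overlap. The 19 B cell markers summed to 22.7, 22.6 and 58.1 CPM with vehicle and to 40.7, 38.6 and 40.8 with quercetin, and overlapped. Positive estimates were found for 8 of 8 tested Fc receptors and antibody transporters (median 0.41) and 5 of 6 macrophage markers (median 0.67), and negative ones for 6 of 6 adipocyte markers (median -1.06). Their part in the muscle values of the antibody genes was not tested.

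When no filter was applied in muscle, 32 of 26302 genes were called by edgeR, with Ighg1 (adjusted p = 0.0234) and Ighg2b (adjusted p = 0.0476) among them. Ighg1 fell below the filter and had no read with vehicle, so its call adds no support. Without quercetin library 2, Igha was at 1.4995 (unadjusted p = 0.0814 by edgeR), Ighg2b at 5.15 and Igkc at 4.35, with no call. Without quercetin library 1, which holds most of the Ighg2b reads of its group, Ighg2b was at 2.42. Without vehicle library 3, the one vehicle library with Jchain above 1 CPM, Jchain was at 6.12. That library, with the highest sum of adipocyte markers in muscle, held 409 of 443 Igkc and 114 of 118 Jchain reads of vehicle muscle. Within the H7H2WDSXX libraries, which leaves out quercetin library 3, Igkc was at 2.29 and Ighm at 0.53.

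In white fat all 10 genes were tested, and 1 had a positive and 9 a negative log2 fold change, where 48.5% of all genes were positive, with a median of -2.27 against -0.01 over all genes. Every gene overlapped between treatments, where 1.83% of all genes were separated in the lower direction. Jchain was at -2.68 ± 1.71 (SE, unadjusted p = 0.168), Ighg3 at -2.65 ± 2.32, Ighg2b at -2.65 ± 2.20 and Igkc at -2.06 ± 1.75, and Ighm at -0.85 ± 1.36. Ighd had the one positive estimate, 0.15 ± 2.39. The adjusted p was 0.9998 for all 10 by edgeR. Among the 4 libraries of code H7H2WDSXX alone, 2 a group, which leaves out exactly both libraries low in these genes, the estimates were close to these and their standard errors smaller. There 6 of the 10 had an unadjusted p below 0.05, as had 520 of all 15094 genes tested (3.45%), against 0.818% with all 6 libraries. In that fit Jchain was at -2.79 ± 0.44, Ighg3 at -2.69 ± 0.44, Ighg2c at -2.52 ± 0.55 and Ighg2b at -2.70 ± 0.69, and Ighm at -0.996 ± 0.61. Without vehicle library 2, the one with few adipocyte markers, 7 of the 10 estimates were negative, with a median of -1.56. No gene was called in these fits either, and the lowest adjusted p among the 10 within that code was 0.976.

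In brown fat 6 of the 10 genes were tested and 4 had a positive estimate, as had 54.9% of all genes, with a median of 0.46 against 0.05 over all genes. All overlapped between treatments, where 2.87% of all genes were separated in the higher direction. Ighg2b was at 1.33 ± 1.35 (SE), Ighm at 0.63 ± 0.59, Igkc at 0.48 ± 0.52 and Jchain at 0.44 ± 0.67. Igha, at -0.22 ± 0.50, and Ighg2c, at -0.19 ± 0.66, were slightly below 0. Without quercetin library 3, the one with muscle markers, all 6 estimates were negative, with a median of -0.25 and Ighg2b at -1.15.

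**Figure D5:**
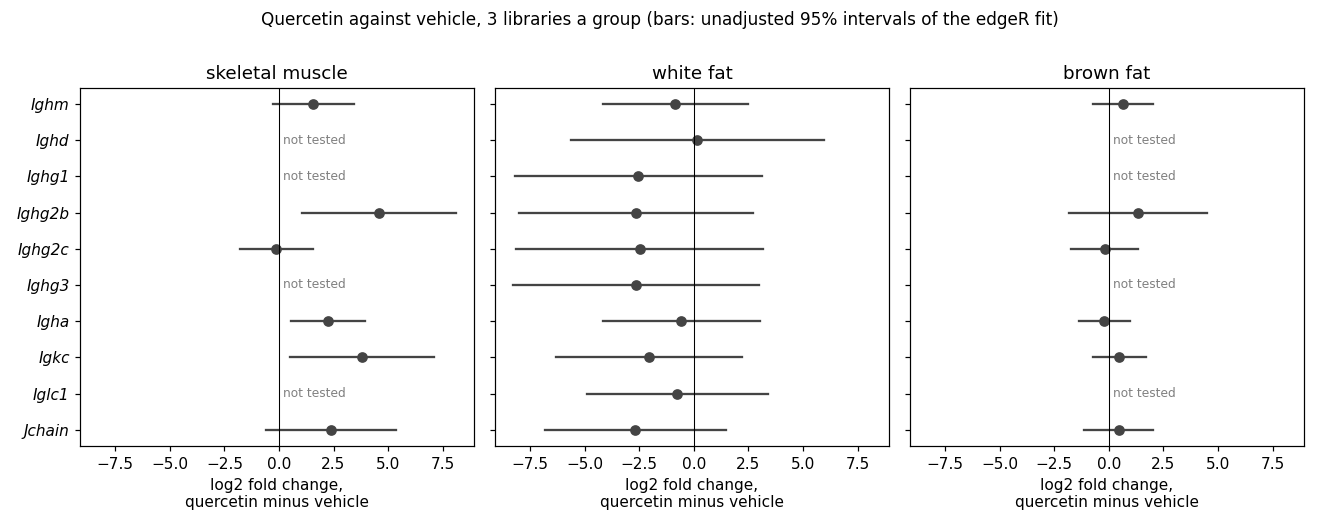
Log2 fold change of quercetin minus vehicle for each gene in the 3 tissues, with unadjusted 95% intervals of the edgeR fit (3 libraries a group); genes below the filter on low counts are marked as not tested. In muscle the intervals of Ighg2b, Igha and Igkc lie above 0 before adjustment, and in white fat every interval spans 0.

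Whether quercetin acted differently on the 10 genes from one tissue to another was tested by interaction contrasts over all 18 libraries. None of the 10 genes was called in any of the 3 pairs of tissues, nor was any other gene by edgeR (0% of 16388). At an unadjusted p below 0.05 there were 223 genes for brown fat against muscle, 231 for white fat against muscle and 173 for brown against white fat, and DESeq2 called 2, 7 and 13 genes, none of the 10 among them. In the pair of white fat and muscle, 4 had an unadjusted p below 0.05. These were Ighg1, Ighg2b at -7.29 ± 2.91, Igkc at -5.93 ± 2.19 and Jchain at -5.13 ± 2.10, each with an adjusted p of 0.99999 by edgeR. The isotype shares did not separate the treatments either. The IgG share was 25.4% ± 26.4 with vehicle and 13.1% ± 12.1 with quercetin in muscle, 59.9% ± 32.8 and 35.6% ± 31.6 in white fat, and 11.1% ± 3.33 and 10.8% ± 5.24 in brown fat (SD, n = 3 each; exact permutation p = 0.7, 0.4 and 0.9, where 3 against 3 cannot give less than 0.1). The Igha share was 1.56% ± 1.25 and 4.15% ± 5.31 in muscle, 5.26% ± 6.07 and 3.86% ± 2.51 in white fat and 9.56% ± 2.92 and 6.88% ± 3.16 in brown fat (exact permutation p = 0.7, 0.9 and 0.6).

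Other genes of the antibody system were read from lists written with earlier results of these data known. Between white fat and muscle, 28.6% of all genes were called higher. So were 19 of 19 tested B cell markers, with a median log2 fold change of 9.54 against 0.24 over all genes. Only 4 of these 19 passed the filter on muscle reads alone, so this median mostly reflects genes that did not. Cd22, a receptor that restrains B cells, was at 9.61 ± 1.57. Of 19 tested plasma cell genes, 15 were called higher and 1 lower, with a median of 2.04, and Cd38, Edem1 and Cxcr3 had the smallest p. Of the genes of class switching and germinal centres, 10 of 15 were called higher and 1 lower, and Tgfb1, the cytokine that directs switching to IgA, was at 2.58 ± 0.35. Called higher were also 12 of 14 Fc receptors and antibody transporters, 12 of 12 T cell markers and 6 of 7 lymph node genes. So were all 3 tested B cell receptor partners and 3 of 5 plasma cell survival genes, among them Tnfsf13b, the factor BAFF, at 3.29 ± 0.54. In muscle libraries alone the filter on low counts kept 4 B cell, 13 plasma cell, 6 switching and 8 Fc receptor genes. It kept 2 T cell, 2 lymph node, 2 survival and 0 B cell receptor genes. The rest did not pass on muscle reads alone, so their calls add no support.

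The same lists were lower in brown fat than in white fat, where 22% of all genes were called lower. So were 18 of 19 B cell, 13 of 19 plasma cell and 10 of 15 switching genes, with 1 plasma cell and 1 switching gene called higher. Called lower were also 12 of 12 T cell, 7 of 7 lymph node and 6 of 14 Fc receptor and transporter genes. So were 3 of 3 B cell receptor and 3 of 5 survival genes. In brown fat libraries alone the filter kept 4 B cell, 12 plasma cell, 6 switching and 8 Fc receptor genes. It kept 2 lymph node, 2 survival, 0 T cell and 0 B cell receptor genes. The rest did not pass on brown fat reads alone, so their calls against white fat add no support either. Between brown fat and muscle, 13.9% of all genes were called higher. So were 4 of 19 plasma cell genes, among them Irf4, a factor that plasma cells need, at 2.79 ± 0.63. Of the 14 Fc receptors and transporters, 3 were called higher and 5 had a negative estimate. Pigr, the receptor that carries polymeric IgA and IgM across epithelia, was higher in brown fat than in muscle at 4.60 ± 1.51 (adjusted p = 0.0341), and Fcgrt, which protects IgG from breakdown, at 1.58 ± 0.36 (adjusted p = 0.00459). Of the B cell, switching and lymph node lists, 1 gene each was called higher in brown fat than in muscle (Ebf1, Fas and Madcam1). Estimates there were positive for 10 of 19 B cell, 11 of 15 switching and 3 of 7 lymph node genes. Of 12 T cell genes, Cd3e was called lower, while 10 had a positive estimate (median 1.05). No T cell gene passed the filter on brown fat reads alone, so this call adds no support. With quercetin, no gene of any list was called in any tissue. In white fat 17 of 19 plasma cell genes and 12 of 19 B cell genes had a negative estimate, with medians of -0.60 and -0.16. Positive estimates there were found for 9 of 12 T cell markers (median 0.38), 5 of 6 macrophage markers (median 0.41) and 9 of 13 Fc receptors and transporters (median 0.18), beside 48.5% of all genes.

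Plasma cell genes were not equally telling of immunoglobulin level. Mzb1, a chaperone of IgM assembly, was at 323, 98.0, 96.6 and 27.9 CPM in the 4 high white fat libraries and at 0.436 and 0.584 in the others. In muscle it was at 0.969 to 6.40 CPM, with 4.08 and 2.77 in vehicle libraries 1 and 2. Xbp1, which drives antibody secretion and is also used by other secretory and fat cells, did not follow this split. It was at 536 and 520 CPM in the low white fat libraries. In the high ones it was at 503 CPM in vehicle library 3 and at 141 to 280 in the others.

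The genes most like the sum of the 10 in level across the 18 libraries were Prg2 (Pearson r = 0.976 on log2 CPM), Pdcd1 (0.966), H2-DMb2 (0.966), Plxnc1 (0.960) and Fcrl5 (0.958), of 16215 genes that are not immunoglobulin genes. Those most like Jchain were Clec4n (0.929), Ap5b1 (0.923), Spn (0.921), Serpina3g (0.915) and Gzmk (0.915). The white fat libraries fall into separate clusters, so no value within white fat is given. Across the 12 muscle and brown fat libraries alone the gene most like the sum was Timd4 (0.901) and that most like Jchain Ap5b1 (0.904). Points share tissue and library depth, and the correlations are descriptions.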

How the data were processed

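Per the labels' protocols, total RNA was extracted with TRIzol, freed of DNA and made into NEBNext Ultra libraries. The deposited values are raw read counts per Ensembl gene, made by the authors with HISAT2 and HTSeq on the mm10 build, per the submitters' processing notes, which also name DESeq2. Those notes give no versions, and neither the annotation release nor the strand setting is given. Symbols (53274 of 53465 genes), coordinates and exon lengths came from GENCODE M21 on GRCm38, the same assembly as mm10. Summary lines for unassigned reads were left out of totals. They held 2.53 to 9.11% (no feature) and 6.47 to 9.84% (ambiguous) of counted and unassigned reads together.

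The 6 groups of 3 libraries were taken from the labels. No pair of replicates was a copy (lowest chi-square per degree of freedom 27.0 over 18 pairs). Counts were filtered (filterByExpr, minimum count 10, minimum total 15), scaled by TMM and tested two-sided with the edgeR 4.0.16 quasi-likelihood test in R 4.3.3, adjusted by Benjamini-Hochberg over all genes tested, with a threshold of 0.05. Treatment was fitted per tissue, and tissues and interactions in a fit of all 18 libraries. CPM use TMM over 18 libraries. Isotype shares are reads per kb of exon over the sum of the 7 heavy chains, in libraries with at least 50 heavy-chain reads (all 18), compared by exact permutation tests. The calculations were tested on simulated data. DESeq2 1.42.0, other scalings, no filter, a replicate block, sequencing code terms, single arms and leaving out each library were alternatives. Named were all 10 genes, Iglc2, Iglc3, Ighe, a panel of 5 other genes (Ms4a1, Cd79a, Mzb1, Xbp1, Ccl21a), genes of the other lists with the smallest p where a list had a call, the 5 most similar genes, and leading variable genes above 20% of at least 100 reads; Cd3e and the variable genes with fewer reads or a lower share were named after their values were seen. The genes and lists were chosen with earlier results of these data known.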

Additional observations from a re-analysis of the deposited data

How the results depend on the processing

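The count of the 10 genes called depended on the setting in several comparisons, and the cause was not tested. Between brown fat and muscle it was 0, and 2 with DESeq2, without both low white fat libraries or with the 12 libraries of both tissues alone, and 1 without a filter or with the sequencing code as a term; leaving out single libraries gave 0 to 2, with 2 without white fat vehicle library 1 and 1 without white fat quercetin library 2. Between white fat and muscle it was 10, with 6 in vehicle and 2 in quercetin libraries alone and 9 to 10 when a library was left out and 9 with the sequencing code as a term or the 12 libraries alone, Ighm being the one lost. Between brown and white fat it was 10, with 4 and 5 in the single arms, which hold fewer samples. The counts of 10 here and below include Ighd, Ighg1, Ighg3 and Iglc1, which passed the filter only through white fat and add no support. With quercetin in muscle it was 0, and 2 without a filter, among them Ighg1, which had no read with vehicle and adds no support. The settings without both low white fat libraries or with 12 libraries alone were chosen after seeing the data. So were the pooled folds in muscle without quercetin library 3.

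The share differences were sensitive to single libraries. Igha of brown fat minus muscle ranged from 4.43 to 6.85 points and of brown minus white fat from 2.72 to 5.20, the latter passing without white fat vehicle library 1. IgG of brown minus white fat ranged from -45.5 to -29.9 and passed without either low white fat library (-41.9 and -45.5). With quercetin, Igha ranged from -0.47 to 4.23 in muscle and from -3.43 to 2.09 in white fat, and IgG from -22.2 to 2.64 in muscle and from -3.19 to 1.85 in brown fat. Among switched isotypes only, an alternative chosen after seeing the data, Igha of white fat minus muscle was -2.76, and quercetin minus vehicle was 13.8 in muscle, 7.24 in white fat and -6.03 in brown fat, with IgG in brown fat at 6.03. That IgG difference was 0.32 with reads not divided by length and 0.59 with the shortest transcript.

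Signs of uncalled log2 fold changes also turned. With quercetin these were Ighg2c in muscle (-0.60 to 0.27 when a library was left out, 0.0617 with a replicate block), Ighm (-1.48 to 0.0713; 0.00812 with the sequencing code as a term), Ighd (-1.95 to 0.73; -1.36 with the block), Igha (-2.26 to 0.23) and Iglc1 (-1.62 to 0.0127) in white fat. In brown fat they were Ighm (-0.14 to 1.03), Ighg2b (-1.15 to 1.87), Ighg2c (-0.72 to 0.56), Igha (-0.54 to 0.10), Igkc (-0.17 to 0.84) and Jchain (-0.19 to 0.89). Between brown fat and muscle, leaving out a library gave Ighd -1.70 to 1.48, Ighg1 -2.20 to 0.58, Ighg2b -0.57 to 1.71, Ighg3 -1.38 to 2.59, Igkc -0.35 to 1.26 and Jchain -0.0355 to 2.12. There the sequencing code as a term gave Ighg2b -0.51, Ighg3 -0.66, Igha -0.34 and Jchain -0.37, quercetin libraries alone Ighg2b -1.06, Igha -0.90 and Jchain -0.78, vehicle libraries alone Ighg1 4.61 and Igkc 1.63, and the replicate block Ighg1 1.01 and Igkc 0.98.

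Replicate numbers are shared between groups, but same-numbered arms correlated at -0.699 to 0.266 and same-numbered tissues at -0.136 to 0.298, not above 0.1 in every pair, so the numbers were not taken to pair libraries. A library correlated best with its own number in 2 of 18 comparisons with the other arm and 26 of 36 with other tissues, where unrelated numbers would give 6 and 12. Between muscle and either fat, all vehicle pairs were at 0.125 or more, but quercetin pairs ranged from -0.136 to 0.149. With the replicate block the counts called were 0 in the 3 quercetin comparisons, 0 for brown fat minus muscle, 10 for white fat minus muscle, 10 for brown minus white fat and 0 for the interactions, and no share comparison passed. Depth limits Ighd, Ighg1, Ighg3 and Iglc1 outside white fat, where a group held at most 156 reads of each, and the variable-gene shares of libraries with under 100 reads.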
